A study of Mus musculus with 6 samples.

Results

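Genes of neutrophils, eosinophils, mast cells and basophils were examined in bone marrow-derived dendritic cell (BMDC) cultures of WT and Nfkb2-/- mice. The 38 genes were chosen by symbol as reporters of lineages other than DCs, 16 for neutrophils, 13 for mast cells and basophils and 9 for eosinophils. Of the 38, 31 held the 50 read counts over all libraries needed to enter the comparison, in which 21849 genes were tested. The cultures started from bone marrow of the femur and tibia and ran for 9 days, 5 with GM-CSF alone at 20 ng/mL and 4 with GM-CSF and IL-4 at 10 ng/mL, and received no stimulus. Polyadenylated RNA of 3 WT and 3 Nfkb2-/- cultures was sequenced, and the study calls them biological replicates. The Nfkb2-/- mice lacked the gene in all cells, so that the deletion was present in any granulocyte or mast cell of the culture as it was in the DCs. The age of the mice is not given in the sources used here. The paper's BMDC methods take the non-adherent cells on day 9 and reseed them for experiments. No sort of the cells before RNA extraction is stated.

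GM-CSF is a growth factor of the whole myeloid branch of haematopoiesis, and cultures made with it can hold granulocytes, macrophages and mast cells beside DCs. Neutrophils make their granule proteins in a fixed order, with the primary granule proteases and myeloperoxidase in promyelocytes, the secondary granule proteins in myelocytes, and chemokine receptors in mature cells. Mast cells and basophils share the high-affinity IgE receptor, histamine synthesis and a set of granule proteases, and eosinophils carry major basic protein, a peroxidase, ribonucleases and the IL-5 and eotaxin receptors. Nfkb2 encodes p100 and p52, the signal transducers of the noncanonical NF-κB pathway.

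Of the 31 genes tested, 1 was called lower in Nfkb2-/- cultures and 0 were called higher. The mast cell protease gene Cpa3 was the one called, at 7.98 ± 2.44 CPM in WT and 2.23 ± 0.328 CPM in Nfkb2-/- cultures (mean ± SD, n = 3 each). The largest difference was that of Cxcr2, the receptor by which neutrophils follow CXC chemokines, at 5.90 ± 5.48 CPM in WT and 83.2 ± 15.7 CPM in Nfkb2-/- cultures, and its adjusted p of 0.0568 in edgeR's quasi-likelihood test missed the threshold. Levels in CPM are read counts divided by the size of the library, adjusted with TMM factors, and multiplied by 1e6, and a gene was called at a Benjamini-Hochberg adjusted p under 0.05 with a fold change over 1.2. The comparison called 1.14% of all genes tested, 0.453% of them as higher and 0.682% as lower in Nfkb2-/- cultures. Fits that leave out libraries, cited below for single genes, called other numbers of all genes, which are given in the closing section on processing. At an unadjusted p under 0.05, 7 of the 31 genes were higher, against 9.03% of all genes tested, and 5 were lower, against 8.04%. DESeq2, which called 8.60% of all genes, called 5 of the 31 as higher (Cd200r3, Cxcr2, Ear6, Gata2 and Siglecf) and 3 as lower (Cpa3, Ltf and Ngp). The libraries of the genotypes did not overlap in 10 of the 31 genes, with the Nfkb2-/- libraries higher in 7, against 12.7% of all genes tested, and lower in 3, against 12.0% of all genes tested. The median log2 fold change was 0.03 over the 31 genes and 0.08 over all genes tested. In bulk RNA, fewer cells of a type and less RNA of a gene per cell cannot be told apart.

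**Figure D1:**
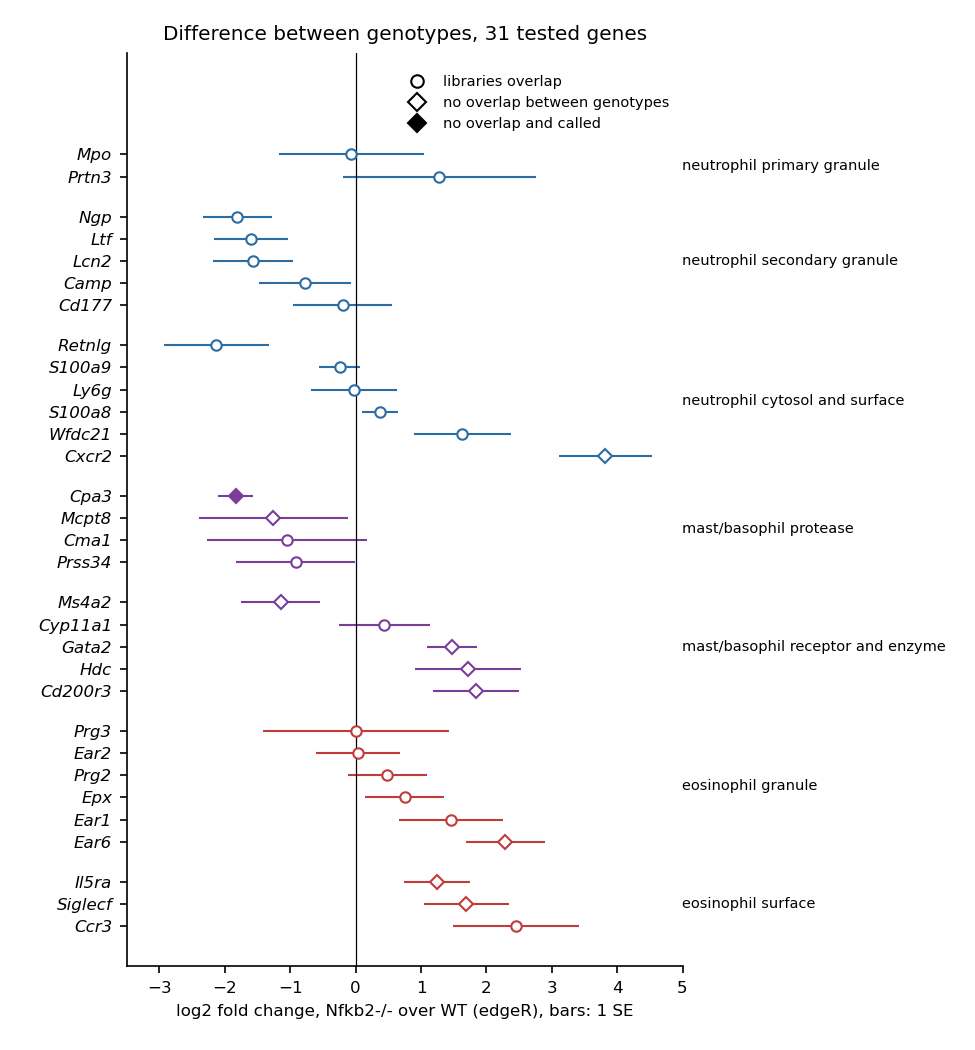
Log2 fold change of Nfkb2-/- over WT cultures with 1 SE from edgeR (horizontal axis) for the 31 genes tested, grouped by role and coloured by lineage (blue neutrophil, purple mast cell and basophil, red eosinophil), where diamonds mark genes without overlap between genotypes and the filled symbol the 1 gene called, Cpa3. Secondary granule genes and mast cell proteases lie left of 0, eosinophil genes lie at or right of 0, and Cxcr2 lies farthest right at 3.82.

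The libraries held 29863927 to 55623068 counts. The targeted gene Nfkb2 stood at 154 to 355 CPM in WT and at 32.3 to 44.8 CPM in Nfkb2-/- libraries (log2 fold change -2.72, edgeR adjusted p = 0.0307). All 10 DC markers examined were detected in every library, and Cd74 and H2-Aa had the highest mean CPM among them. Itgax, which encodes CD11c, was itself called higher in Nfkb2-/- cultures (123 to 277 against 716 to 769 CPM, edgeR adjusted p = 0.0414), Dpp4 and Ciita were higher and Zbtb46 lower without overlap and without a call, and the other 6 overlapped. Of 4 progenitor markers, Cd34 stood at 0.585 to 4.62 against 27.1 to 27.8 CPM (edgeR adjusted p = 0.0536) and Sox4 at 175 to 517 against 86.1 to 106 CPM (edgeR adjusted p = 0.0618), while Myb and Cd93 overlapped. The markers without overlap thus moved with genotype in both directions, beside the genes described below. Their part in the differences of those genes was not tested. Nfkb2-/- replicate 1 stood apart at low levels: it had at least 1 count on 47952 gene IDs, against 27692 to 33841 in the other libraries, and all 12 genes of a list of liver, muscle, brain and other tissue genes had their highest count there, at a summed 15.5 CPM against 1.01 to 2.80 CPM. WT replicate 3 stood apart in its marker levels. Its summed level of the 10 DC markers was the highest, at 10230 CPM against 5560 to 8360 CPM elsewhere. It was the highest library for 5 of these 10, against 21.8% of all genes tested. The summed level of 8 macrophage markers was 137 CPM there and 520 to 895 CPM elsewhere, and that of 3 monocyte markers 78.8 CPM there and 453 to 863 CPM elsewhere. It was also the lowest library for 17 of the 31 granulocyte and mast cell genes, against 25% of all genes tested. WT replicate 2 was the highest library for 11 of the 31, against 13.1% of all genes tested. The median SD on the log2 scale over the 31 genes was 1.16 among WT and 0.48 among Nfkb2-/- libraries.

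**Figure D2:**
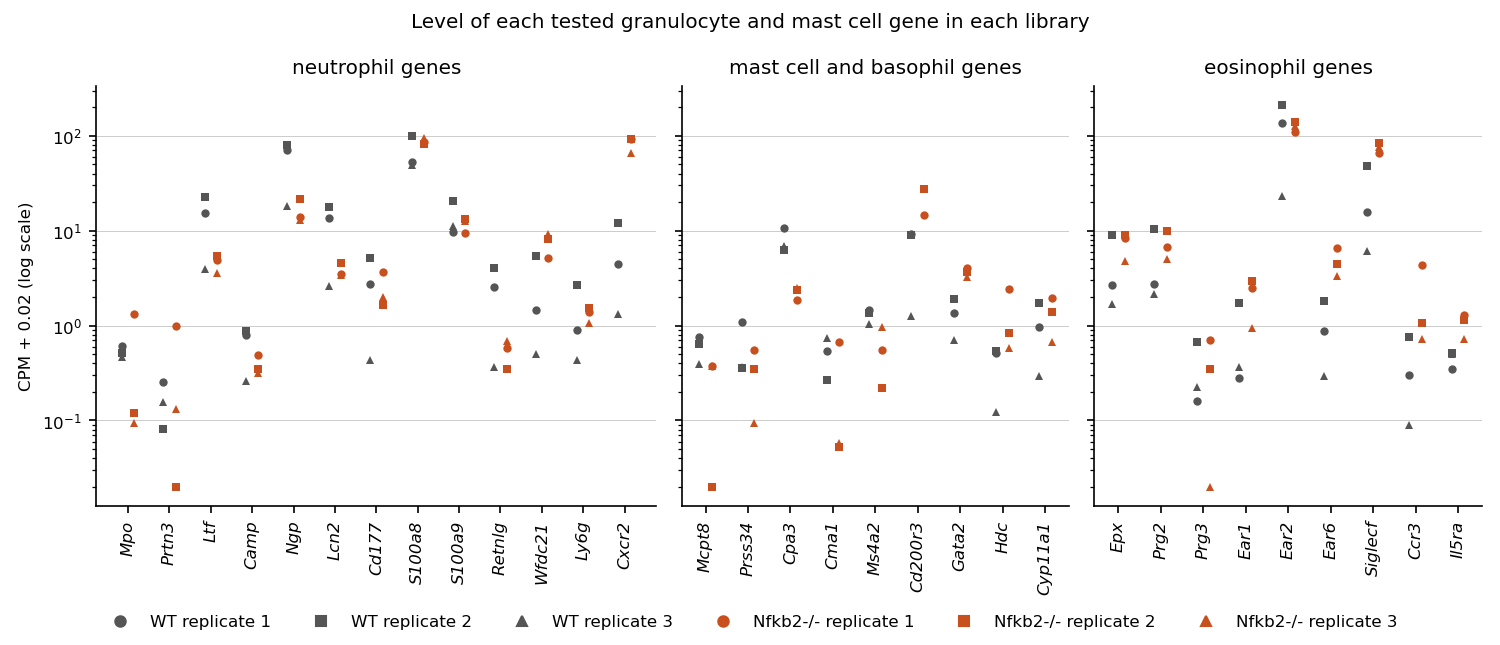
Level of each of the 31 genes tested (vertical axis, CPM + 0.02 on a log scale) in the 3 WT (grey) and 3 Nfkb2-/- (orange) libraries, with a symbol for each replicate number. The WT triangles, replicate 3, lie lowest for 17 of the 31 genes, and the WT libraries spread more widely than the Nfkb2-/- libraries for 21 of them.

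The promoter sequences of 6 of the genes are shown because they give the reader both sides of the comparison: Cpa3 and Ms4a2, lower in every Nfkb2-/- library, Cd200r3, Il5ra and Cxcr2, higher in every Nfkb2-/- library, and Ltf, a secondary granule gene. Each is the 250 bases before the RefSeq start in assembly GRCm38.p6, read 5′ to 3′ on the strand of the gene. RefSeq promoters were found for 34 of the 38 genes, and none was at hand for Prg2, Tpsab1, Tpsb2 and Wfdc21. Capitals mark matches on either strand to the GATA letters AGATAA, the PU.1-type ETS letters GAGGAA, the C/EBP letters TTGCNNAA and the NF-κB letters GGGANNTTC.

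Cpa3, chr3:20242182-20242431, minus strand: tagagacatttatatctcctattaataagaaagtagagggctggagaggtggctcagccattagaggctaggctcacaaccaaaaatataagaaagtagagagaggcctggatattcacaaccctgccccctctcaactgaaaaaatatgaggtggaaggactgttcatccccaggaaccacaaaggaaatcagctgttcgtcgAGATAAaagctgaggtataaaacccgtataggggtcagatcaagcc
Ms4a2, chr19:11623720-11623969, minus strand: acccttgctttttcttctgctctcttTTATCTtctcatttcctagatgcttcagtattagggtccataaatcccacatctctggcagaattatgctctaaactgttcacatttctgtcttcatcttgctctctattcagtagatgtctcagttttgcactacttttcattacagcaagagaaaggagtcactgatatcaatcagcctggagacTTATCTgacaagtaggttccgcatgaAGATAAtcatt
Cd200r3, chr16:44943428-44943677, plus strand: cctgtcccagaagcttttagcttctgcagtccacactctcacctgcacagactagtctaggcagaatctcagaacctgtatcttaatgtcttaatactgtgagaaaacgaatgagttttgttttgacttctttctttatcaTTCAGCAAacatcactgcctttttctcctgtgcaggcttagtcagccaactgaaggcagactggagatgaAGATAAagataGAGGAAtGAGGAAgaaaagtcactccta
Il5ra, chr6:106749038-106749287, minus strand: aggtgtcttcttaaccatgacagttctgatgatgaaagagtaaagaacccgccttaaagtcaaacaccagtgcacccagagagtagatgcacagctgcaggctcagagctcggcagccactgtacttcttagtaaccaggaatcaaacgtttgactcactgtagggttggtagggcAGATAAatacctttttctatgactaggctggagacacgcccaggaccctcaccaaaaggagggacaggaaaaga
Cxcr2, chr1:74153744-74153993, plus strand: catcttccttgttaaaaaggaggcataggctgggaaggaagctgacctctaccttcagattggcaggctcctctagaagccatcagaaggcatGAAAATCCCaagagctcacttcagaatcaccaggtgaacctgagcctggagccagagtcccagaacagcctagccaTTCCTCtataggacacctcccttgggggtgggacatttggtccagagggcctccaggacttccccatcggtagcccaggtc
Ltf, chr9:111019042-111019291, plus strand: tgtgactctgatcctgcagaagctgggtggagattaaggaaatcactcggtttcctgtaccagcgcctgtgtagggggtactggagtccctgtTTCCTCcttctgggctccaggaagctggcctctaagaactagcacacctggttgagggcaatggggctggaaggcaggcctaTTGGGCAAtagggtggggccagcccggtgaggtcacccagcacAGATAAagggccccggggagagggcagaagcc

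GATA letters stood 46 bases before the start of Cpa3, 39 before Cd200r3, 74 before Il5ra, 32 before Ltf, and at 224, 37 and 11 bases before Ms4a2. They were thus present in genes whose levels were lower and in genes whose levels were higher in Nfkb2-/- cultures. Windows without GATA letters also lay on both sides among genes without overlap, with Mcpt8 lower and Cxcr2, Ear6, Gata2, Hdc and Siglecf higher. Over the 34 genes, 9 held the GATA letters (26.5%, against 11.4% of 27025 genes with such a window), 16 the ETS letters (47.1% against 25.9%), 12 the C/EBP letters (35.3% against 10.8%) and 4 the NF-κB letters (11.8% against 3.7%). The 4 with NF-κB letters were Ccr3, Cxcr2, Gata2 and S100a9, and those of Cxcr2 began 157 bases before its start. The windows of Cd200r3, Ltf and Fcer1a held all but the NF-κB letters. A match describes the letters of the window and is not a binding site, and binding was not measured here.

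Primary granule genes of early neutrophil precursors were at the edge of detection. Elane (neutrophil elastase) and Ctsg (cathepsin G) had too few reads to be tested, with at most 14 and 20 counts in any library. Mpo, which encodes myeloperoxidase, had 25, 16 and 13 counts in the WT and 44, 3 and 4 counts in the Nfkb2-/- libraries, and Prtn3, which encodes proteinase 3, had 10, 2 and 4 against 33, 0 and 6. For all 4 genes the highest library was Nfkb2-/- replicate 1, the library in which the tissue genes were also highest. Without it, the log2 fold change of Mpo moved from -0.07 to -2.56 (edgeR adjusted p = 0.101). The summed level of the 4 genes was 0.973, 1.05 and 0.654 CPM in WT and 3.28, 0.132 and 0.318 CPM in Nfkb2-/- libraries, so that the order of the genotypes depends on that 1 library.

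Secondary granule genes, made later in neutrophil maturation, were present at moderate levels and were lower on average in Nfkb2-/- cultures for all 5 tested, with 0 called. Ngp, which encodes neutrophilic granule protein, stood at 70.7, 80.5 and 18.0 CPM in the WT and at 13.8, 21.6 and 13.1 CPM in the Nfkb2-/- libraries. Ltf, which encodes the iron-binding lactoferrin, stood at 15.2, 22.5 and 3.89 CPM against 4.85, 5.37 and 3.57 CPM. In both genes WT replicates 1 and 2 were well above all other libraries, and WT replicate 3 lay within or near the Nfkb2-/- range. Ngp had a log2 fold change of -1.81 (SE 0.52, edgeR adjusted p = 0.147) and Ltf of -1.60 (SE 0.56, edgeR adjusted p = 0.209). Lcn2 (lipocalin 2, which binds bacterial siderophores) also had WT replicates 1 and 2 on top but WT replicate 3 lowest, from 2.58 to 17.8 CPM in WT and from 3.42 to 4.58 CPM in Nfkb2-/- libraries. Camp, the cathelicidin gene, ranged from 0.241 to 0.861 CPM in WT and from 0.299 to 0.473 CPM in Nfkb2-/- libraries, and Cd177, a neutrophil surface glycoprotein gene, from 0.413 to 5.17 and from 1.61 to 3.69 CPM. Ficolin B (Fcnb) was not tested, with at most 21 counts in a library. The summed level of all 6 genes was 103, 127 and 25.2 CPM in WT and 26.9, 33.5 and 22.4 CPM in Nfkb2-/- libraries. With WT replicate 3 left out, Ltf, Ngp and Lcn2 were called lower, with edgeR adjusted p of 0.0348, 0.0265 and 0.0251. With WT replicate 3 and Nfkb2-/- replicate 1 both left out, a fit chosen after seeing the data, these 3 were also called, at log2 fold changes of -2.10, -2.15 and -1.99. Both fits called more genes over all genes tested than the main comparison did, and they share most of their libraries.

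Cytosolic and surface genes of neutrophils did not share a direction. S100a8 and S100a9 encode the subunits of calprotectin, the most abundant cytosolic protein of neutrophils. S100a8 stood at 53.5, 98.8 and 49.6 CPM in the WT and at 85.5, 81.3 and 94.4 CPM in the Nfkb2-/- libraries (log2 fold change 0.37, SE 0.27, edgeR adjusted p = 0.530), and was called higher only when WT replicate 2 was left out (0.76, edgeR adjusted p = 0.0445). S100a9 stood at 9.68, 20.7 and 11.2 CPM against 9.36, 13.3 and 12.5 CPM (log2 fold change -0.24, SE 0.31, edgeR adjusted p = 0.736). For both, the Nfkb2-/- values lay inside or close to the WT range. Per kb of exon, S100a8 was at 111 CPM and S100a9 at 24.5 CPM over all libraries, so that the RNAs of the partner subunits differed in level. Their proteins were not measured. Ly6g, the surface antigen used to define mouse neutrophils, was low in both genotypes, from 0.413 to 2.68 CPM in WT and from 1.05 to 1.52 CPM in Nfkb2-/- libraries (log2 fold change -0.02, SE 0.65).

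Cxcr2 departed from the other neutrophil genes. It lies at chr1:74153989-74161246 on the plus strand in GRCm38 and stood at 4.41, 12.0 and 1.31 CPM in the WT and at 93.1, 91.5 and 65.1 CPM in the Nfkb2-/- libraries, which is 38 to 389 counts against 2776 to 3479 counts. The Nfkb2-/- libraries were all above the highest WT library, and the WT libraries themselves differed 9.15-fold. The log2 fold change was 3.82 (SE 0.71, 14.1-fold, edgeR adjusted p = 0.0568). Cxcr2 was not called in the main comparison but was called when WT replicate 2 (edgeR adjusted p = 0.0110) or WT replicate 3 (0.0414) was left out, and when WT replicate 3 and Nfkb2-/- replicate 1 were left out together (0.0339). The fold change stayed between 3.25 and 4.84 on the log2 scale over all 15 alternatives, of which 8 called it. Retnlg, a resistin-like gene of mature neutrophils, had the opposite order, at 2.52, 4.06 and 0.344 CPM in WT and 0.561, 0.330 and 0.674 CPM in Nfkb2-/- libraries (log2 fold change -2.13, SE 0.80, edgeR adjusted p = 0.236, and -1.45 without WT replicate 2), and was called lower with WT replicate 3 and Nfkb2-/- replicate 1 both left out (edgeR adjusted p = 0.0416). Wfdc21, which encodes a small secreted protein with a whey acidic protein domain, ranged from 0.482 to 5.35 CPM in WT and from 5.08 to 9.22 CPM in Nfkb2-/- libraries (log2 fold change 1.63, SE 0.74, edgeR adjusted p = 0.324), and was called higher, at 2.93, when WT replicate 2 was left out (edgeR adjusted p = 0.0338). Of the 13 neutrophil genes tested, Cxcr2, Wfdc21, S100a8 and Prtn3 thus had higher means in Nfkb2-/- cultures and the other 9 had lower means, and the sign for Ly6g depended on the setting, from -0.48 to 1.003 on the log2 scale. The share of Cxcr2 exon windows of 50 bases found in other genes was 6.7%, and at 100 bases it was 0%.

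**Figure D3:**
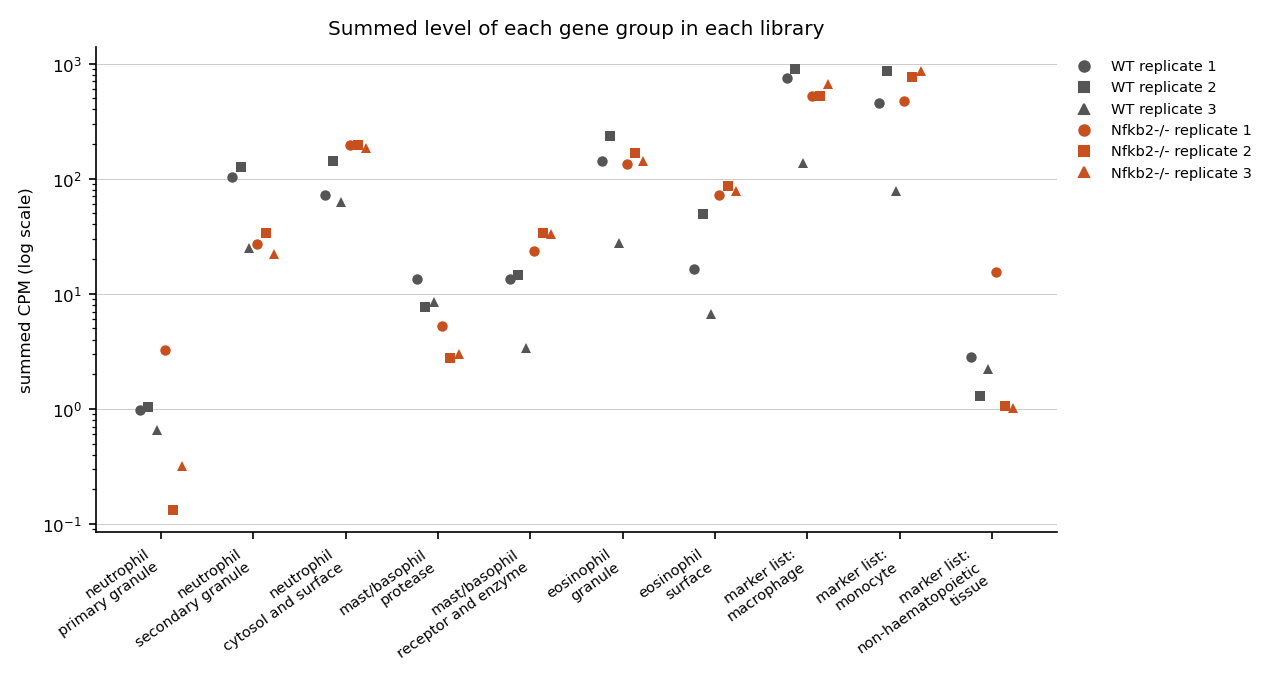
Summed CPM (vertical axis, log scale) of each group of the 38 genes and of 3 marker lists in each WT (grey) and Nfkb2-/- (orange) library. WT replicate 3, the grey triangle, lies below the other WT libraries for the secondary granule, eosinophil, macrophage and monocyte groups, and Nfkb2-/- replicate 1, the orange circle, lies highest for primary granule genes (3.28 CPM) and for non-haematopoietic tissue genes (15.5 CPM).

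Of the 9 mast cell and basophil genes tested, 1 was called. The 4 proteases tested had lower means in Nfkb2-/- cultures, 3 of them at 1.07 CPM or less in every library, while 4 of the 5 receptor, transcription factor and enzyme genes tested had higher means. The difference between these groups was not tested. Cpa3, which encodes the carboxypeptidase A3 stored in mast cell granules, lies at chr3:20215620-20242181 on the minus strand in GRCm38. It stood at 10.8, 6.31 and 6.85 CPM in the WT and at 1.86, 2.34 and 2.49 CPM in the Nfkb2-/- libraries, which is 199 to 454 against 63 to 133 counts. All WT libraries were above all Nfkb2-/- libraries, and WT replicate 3 was not the lowest. Cpa3 fell by 1.84 on the log2 scale (SE 0.28, 3.57-fold lower, edgeR adjusted p = 0.0413) in Nfkb2-/- cultures, and no 50-base window of its exons was found in another gene. With WT replicate 3 and Nfkb2-/- replicate 1 both left out, the log2 fold change was -1.84 (edgeR adjusted p = 0.0412). The call was lost with WT replicate 1 set aside (adjusted p = 0.161 by edgeR) and with any 1 of the Nfkb2-/- replicates set aside (0.0931, 0.202 and 0.174 for replicates 1 to 3), and in each of these 4 fits edgeR called 0 genes of any kind, with 2325 to 4088 genes at an unadjusted p under 0.05.

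The other granule proteases were near the floor. Mcpt8, a protease of basophils, stood at 0.735, 0.615 and 0.379 CPM in the WT and at 0.354, 0 and 0.356 CPM in the Nfkb2-/- libraries, without overlap but with at most 31.1 counts per kb (log2 fold change -1.26, SE 1.13, edgeR adjusted p = 0.613). The chymase gene Cma1 and the serine protease gene Prss34 ranged from 0.0330 to 1.07 CPM over all libraries, with log2 fold changes of -1.05 and -0.92 and SEs of 1.22 and 0.91. Tryptase genes Tpsb2 and Tpsab1 and the chymase gene Mcpt4, which mark connective tissue mast cells, were not tested. Tpsab1 had 0 counts in 5 libraries and 36 in Nfkb2-/- replicate 1, and Tpsb2 had 17 counts there against 0 to 8 elsewhere. Cpa3 was thus present without a comparable level of the tryptases that mature mast cells also store: per kb of exon it averaged 3.36 CPM, against 0.119 CPM for Tpsb2.

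**Figure D4:**
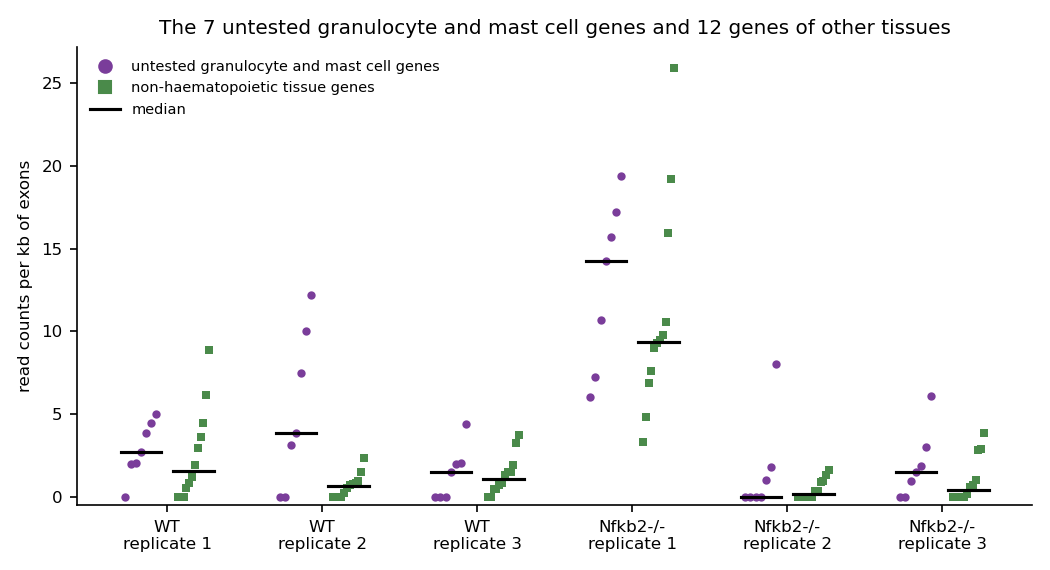
Read counts per kb of exon (vertical axis) of the 7 granulocyte and mast cell genes that were not tested (purple circles) and of 12 genes of liver, muscle, brain and other tissues (green squares) in each library, with medians as black bars. In Nfkb2-/- replicate 1 the medians were 14.2 and 9.38, and in the other 5 libraries they were 0 to 3.87 and 0.172 to 1.56.

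The IgE receptor genes were low. Ms4a2, the beta chain, stood at 1.42, 1.32 and 1.03 CPM in the WT and at 0.532, 0.198 and 0.954 CPM in the Nfkb2-/- libraries, again with all WT libraries on top (log2 fold change -1.14, SE 0.60, edgeR adjusted p = 0.397, and -1.77 without Nfkb2-/- replicate 3). The alpha chain gene Fcer1a had 2 to 10 counts per library and was not tested. The remaining genes of the group had the opposite order. Cd200r3, an activating receptor of basophils and mast cells, stood at 9.20, 8.92 and 1.24 CPM in the WT and at 14.5, 27.5 and 27.4 CPM in the Nfkb2-/- libraries (log2 fold change 1.84, SE 0.66, edgeR adjusted p = 0.214). Gata2, a transcription factor that mast cells and basophils need, stood at 1.33, 1.91 and 0.688 CPM against 4.05, 3.66 and 3.22 CPM (log2 fold change 1.47, SE 0.38, edgeR adjusted p = 0.119). Neither gene overlapped between genotypes, and in both WT replicate 3 was the lowest library.

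Without WT replicate 3 the log2 fold changes of Cd200r3 and Gata2 were 1.36 and 1.17, and with Nfkb2-/- replicate 1 left out as well Cd200r3 was called higher (1.58, edgeR adjusted p = 0.0216) and Gata2 was not (1.07, edgeR adjusted p = 0.0904). Without WT replicate 2 Gata2 was called, at 1.83 (edgeR adjusted p = 0.0473). Hdc, which encodes the histidine decarboxylase that makes histamine, stood at 0.498, 0.523 and 0.103 CPM in WT and at 2.39, 0.824 and 0.561 CPM in Nfkb2-/- libraries. Its high value came from Nfkb2-/- replicate 1, with 12.7 counts per kb beside a median of 9.38 for the tissue genes, and without that library its log2 fold change was 0.84 in place of 1.72. Cyp11a1, the side-chain cleavage enzyme of steroid synthesis, stood at 0.949, 1.69 and 0.275 CPM against 1.95, 1.38 and 0.655 CPM, with wide overlap (log2 fold change 0.44, SE 0.69, and 1.096 without WT replicate 2). The 6 receptor, transcription factor and enzyme genes summed to 13.4, 14.7 and 3.41 CPM in WT and to 23.6, 33.8 and 32.9 CPM in Nfkb2-/- libraries, and the 7 proteases to 13.4, 7.66 and 8.54 CPM against 5.20, 2.77 and 3.01 CPM, of which single genes took large shares. Cd200r3 was 27.5 of the 33.8 and 27.4 of the 32.9 CPM in Nfkb2-/- replicates 2 and 3, but 1.24 of the 3.41 CPM in WT replicate 3. Cpa3 was 10.8 of the 13.4 and 6.31 of the 7.66 CPM in WT replicates 1 and 2, but 1.86 of the 5.20 CPM in Nfkb2-/- replicate 1.

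Eosinophil genes had means in Nfkb2-/- cultures that were at or above those of WT for all 9, with a median log2 fold change of 1.24 and 0 called. The log2 fold changes ranged from 0.01 to 2.29 among the granule genes and from 1.24 to 2.46 among the surface receptor genes. Ear2, an eosinophil-associated ribonuclease gene that macrophages also express, had the highest mean of the 38 genes and stood at 136, 211 and 23.2 CPM in the WT and at 110, 141 and 127 CPM in the Nfkb2-/- libraries (log2 fold change 0.03, SE 0.64, edgeR adjusted p = 0.987). WT replicate 3 was the only low library, as it was for the macrophage markers. Prg2, which encodes major basic protein, stood at 2.73, 10.5 and 2.13 CPM in WT and at 6.65, 9.82 and 4.96 CPM in Nfkb2-/- libraries. Epx, the eosinophil peroxidase gene, stood at 2.66, 8.89 and 1.65 CPM against 8.30, 9.10 and 4.83 CPM. These granule genes overlapped between genotypes, with WT replicate 2 close to or above the Nfkb2-/- libraries, and had log2 fold changes of 0.48 (SE 0.60) for Prg2 and 0.75 (SE 0.60) for Epx. Without WT replicate 2 these were 1.55 and 1.77 (edgeR adjusted p = 0.0615 and 0.0530), and without WT replicate 3 they were 0.12 and 0.37. Those of Ear2 without the same libraries were 0.66 and -0.46.

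Ear6, unlike Ear1 and Ear2, did not overlap between genotypes, at 0.854, 1.78 and 0.275 CPM in the WT and 6.59, 4.42 and 3.35 CPM in the Nfkb2-/- libraries (log2 fold change 2.29, SE 0.61, edgeR adjusted p = 0.123). It was called when WT replicate 2 was left out (3.04, edgeR adjusted p = 0.0382). Ear1 had the same direction, from 0.261 to 1.69 CPM in WT and from 0.917 to 2.93 CPM in Nfkb2-/- libraries (log2 fold change 1.46, SE 0.79, edgeR adjusted p = 0.409). The ribonucleases are a family of near copies, and the counting of shared reads is not stated: 57.4% of the 50-base exon windows of Ear1 and 41.5% of those of Ear2 also occurred in other genes, chiefly in each other, Ear10 and pseudogenes, against 1% of those of Ear6. The counts of Ear1 and Ear2 are uncertain for that reason. Prg3, a paralog of Prg2, was at 0 to 0.679 CPM (log2 fold change 0.01, SE 1.43).

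Siglecf, the sialic acid-binding receptor by which eosinophils are sorted and which alveolar macrophages also carry, stood at 15.7, 48.2 and 6.13 CPM in the WT and at 66.3, 84.0 and 76.7 CPM in the Nfkb2-/- libraries. The lowest Nfkb2-/- library was above the highest WT library, and the Nfkb2-/- libraries lay close together while the WT libraries differed 7.88-fold. The log2 fold change was 1.69 (SE 0.65, edgeR adjusted p = 0.240), 1.25 without WT replicate 3 and 2.78 without WT replicate 2, the last of which was called (edgeR adjusted p = 0.0209). Ccr3, the eotaxin receptor gene, ranged from 0.0688 to 0.738 CPM in WT and from 0.711 to 4.31 CPM in Nfkb2-/- libraries. Il5ra, the alpha chain of the IL-5 receptor, stood at 0.332, 0.492 and 0.482 CPM against 1.27, 1.12 and 0.711 CPM, without overlap (log2 fold change 1.24, SE 0.51, edgeR adjusted p = 0.270). The highest value of both genes was in Nfkb2-/- replicate 1, and without it their log2 fold changes were 1.25 in place of 2.46 for Ccr3 and 1.06 for Il5ra. The 3 surface genes summed to 16.4, 49.5 and 6.68 CPM in WT and to 71.9, 86.1 and 78.1 CPM in Nfkb2-/- libraries, without overlap, while the 6 granule genes summed to 143, 234 and 27.8 CPM against 134, 168 and 141 CPM. Siglecf made up most of the surface sum and Ear2 most of the granule sum in every library. The difference between these groups was not tested. Leaving out WT replicate 3 showed how far the fold changes moved without that library. The part of that culture in the differences between genotypes, and that of macrophage content, was not tested.

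**Figure D5:**
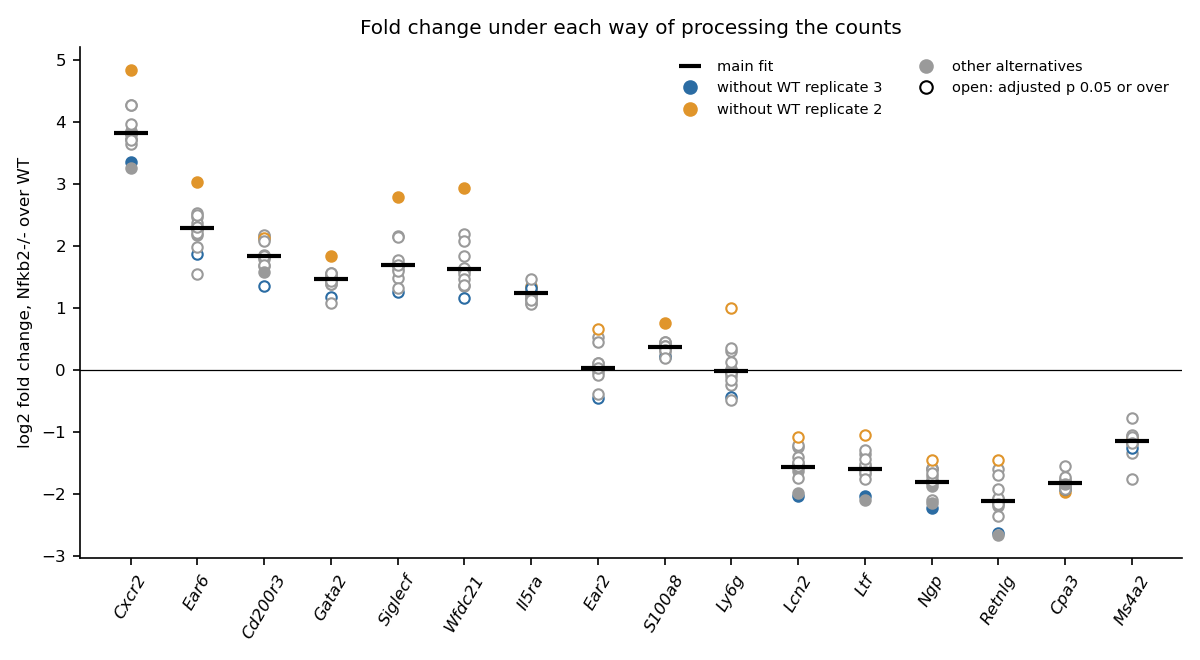
Log2 fold change of Nfkb2-/- over WT cultures (vertical axis) for 16 of the genes under the main comparison (black bar) and each alternative (circles), with fits that leave out WT replicate 3 in blue and WT replicate 2 in orange, and open circles for an adjusted p of 0.05 or over. Cpa3 lies between -1.98 and -1.56 and Cxcr2 between 3.25 and 4.84, while Ear2 and Ly6g lie on both sides of 0.

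Summed by lineage, the 16 neutrophil genes stood at 176, 272 and 89.1 CPM in WT and at 225, 230 and 206 CPM in Nfkb2-/- libraries, the 13 mast cell and basophil genes at 26.8, 22.3 and 11.9 against 28.8, 36.6 and 35.9 CPM, and the 9 eosinophil genes at 159, 283 and 34.5 against 206, 254 and 219 CPM. Only the mast cell and basophil sums did not overlap between genotypes, and narrowly, at 28.8 CPM in Nfkb2-/- replicate 1 against 26.8 CPM in WT replicate 1. In these libraries Hdc gave 2.39 against 0.498 CPM and Tpsab1 1.06 against 0 CPM. Nfkb2-/- replicate 1 was also the library in which the tissue genes were highest, so that this separation is uncertain. The log2 ratios of the means were 0.30, 0.73 and 0.51, and without WT replicate 3 they were -0.022, 0.46 and 0.036, so that the neutrophil and eosinophil sums were level once that library was set aside. Ear2 alone gave 136, 211 and 23.2 CPM of the WT eosinophil sums and 110, 141 and 127 CPM of the Nfkb2-/- sums. The eosinophil sum thus follows mainly that gene, whose count is uncertain. The neutrophil sum and the mast cell and basophil sum each joined genes with higher and genes with lower means in Nfkb2-/- cultures, 4 higher and 9 lower in the first and 4 higher and 5 lower in the second, while the 9 eosinophil genes all had higher means.

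A second list of 41 genes of the same lineages gave 31 tested genes, of which edgeR called 0, with 3 higher and 6 lower at an unadjusted p under 0.05, and DESeq2 called 6, beside the shares of all genes given above for these rules. Their median log2 fold change was 0.05. With WT replicate 2 left out, a fit that called 1248 of 21275 genes, 5 were called (Alox15, Il1rl1, Serpinb1a, Trib1 and Xbp1), and with WT replicate 3 left out, a fit that called 270 of 21341 genes, 2 were called (Csf3r and Hpgds). Among neutrophil genes, Serpinb1a, an inhibitor of the primary granule proteases, stood at 58.9, 14.5 and 48.6 CPM in the WT and at 6.85, 7.65 and 5.99 CPM in the Nfkb2-/- libraries, without overlap (log2 fold change -2.58, SE 0.48, edgeR adjusted p = 0.0577). Its low WT library was replicate 2, the one in which 9 of the 13 neutrophil genes tested above were highest. Mmp8, the collagenase of secondary granules, stood at 115, 193 and 21.4 CPM against 30.0, 40.1 and 59.2 CPM (log2 fold change -1.35, SE 0.68, edgeR adjusted p = 0.374, and -0.66 without WT replicate 2). As in Lcn2, WT replicates 1 and 2 were on top and WT replicate 3 was lowest. The integrin gene Itgb2l stood at 14.7, 12.8 and 24.5 CPM against 12.7, 10.8 and 11.2 CPM, barely without overlap.

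Among the mast cell and basophil genes of that list, Mitf, a transcription factor of mast cells, melanocytes and macrophages, stood at 130, 118 and 57.0 CPM in WT and at 105, 144 and 123 CPM in Nfkb2-/- libraries. Il1rl1, the IL-33 receptor gene, stood at 15.7, 91.4 and 2.24 CPM against 99.7, 155 and 169 CPM, without overlap, and the 40.9-fold range of the WT libraries left it at an edgeR adjusted p of 0.405 (log2 fold change 1.95, SE 1.05). Without WT replicate 2 its log2 fold change was 3.96 (edgeR adjusted p = 0.0486) and without WT replicate 3 it was 1.41. Tal1, a haematopoietic transcription factor gene, stood at 17.8, 18.9 and 29.3 CPM against 14.2, 13.7 and 17.3 CPM. Kit, the stem cell factor receptor on which mast cells depend, ranged from 37.2 to 43.0 CPM in WT and from 41.2 to 50.5 CPM in Nfkb2-/- libraries (log2 fold change 0.18, SE 0.15, edgeR adjusted p = 0.570).

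Among the eosinophil genes of that list, Alox15, the 12/15-lipoxygenase gene of eosinophils and IL-4-treated macrophages, stood at 1.21, 9.23 and 1.75 CPM in WT and at 46.6, 38.04 and 36.0 CPM in Nfkb2-/- libraries, without overlap (log2 fold change 3.31, SE 0.74, edgeR adjusted p = 0.0877). Xbp1, a secretory pathway transcription factor that eosinophils need, stood at 121, 223 and 141 CPM against 333, 397 and 418 CPM (log2 fold change 1.25, SE 0.25, edgeR adjusted p = 0.0680). Both were called by DESeq2 and by edgeR without WT replicate 2, at log2 fold changes of 4.77 and 1.55 (edgeR adjusted p = 0.00500 and 0.0115). The receptor genes through which GM-CSF, IL-3 and IL-5 signal were abundant in every library. Csf2rb, the shared beta chain, stood at 2826, 1943 and 2900 CPM in WT and at 1942, 1799 and 1784 CPM in Nfkb2-/- libraries (log2 fold change -0.47, SE 0.21, edgeR adjusted p = 0.321), and Csf2rb2 at 1180, 850 and 1221 against 796, 809 and 794 CPM. The lowest WT and the highest Nfkb2-/- value of Csf2rb were nearly equal.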

How the data were processed

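RNA-seq of unstimulated WT and Nfkb2-/- BMDCs was analysed, with 3 libraries per genotype assigned by the sample labels. The authors deposited read counts per Ensembl gene and library as whole numbers without normalization, and the deposited table of all libraries held the same values and served as a check. The submitters' processing notes name HISAT2 and the builds GRCm38 and mm10, while the counting tool, the annotation and the use of strand are not given in the sources used here. Names, exon lengths and exon sequences came from GENCODE M21 (GRCm38), and IDs without a name there, with 1.01 to 1.75% of counts, were left out. Following the study's methods, genes with under 50 counts over the 6 libraries were left out.

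Counts were scaled by TMM and compared with edgeR 4.0.16 (R 4.3.3, quasi-likelihood test, no covariates), with Benjamini-Hochberg adjustment over all 21849 genes tested. The script was tested on simulated data. Alternatives were DESeq2 1.42.0, limma 3.58.1 (voom), other scalings and filters, a replicate block, a fold change over 2 and leaving out each library. Leaving out WT replicate 3 and Nfkb2-/- replicate 1 together was chosen after seeing the data. The members and lists were chosen with earlier results of these data known. Genes were described by library if among the 5 most abundant tested of a lineage, called, or without overlap between genotypes, and of the second list if called, without overlap at 5 CPM or more, or among the 2 most abundant of a lineage. Others are named as examples with values seen. With 3 against 3 libraries an exact permutation test of a single value cannot go below p = 0.1. A single count was worth 0.0187 to 0.0344 CPM after TMM adjustment, the most in WT replicate 3, and 0.0295 CPM in the library with the fewest counts, Nfkb2-/- replicate 1. Replicates differed beyond sampling noise in every pair, with chi-square per degree of freedom of 9.97 or more, so none was counted as a duplicate.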

Additional observations from a re-analysis of the deposited data

How the results depend on the processing

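The number of genes called over all genes tested, 248 in the main comparison, was 1878 with DESeq2, 488 with limma voom, 397 with edgeR's filterByExpr, 1625 with the filter lowered to 1 count in 1 library and 459 with at least 10 counts in every library. It ranged from 0 to 1248 when single libraries were left out, and was 908 without WT replicate 3 and Nfkb2-/- replicate 1. The genes called higher among the 31, 0 in the main comparison, were 5, 1, 1, 7 and 1 under these 5 settings in the same order, 0 to 6 with single libraries left out and 2 with both left out. The genes called lower, 1 in the main comparison, were 3 with DESeq2, 5 with no filter, 0 to 4 with single libraries left out and 5 with both left out. Of the second list, edgeR called 0, against 6, 2, 1, 8 and 2 under the 5 settings, 0 to 5 with single libraries left out and 3 with both left out. Scaling by RLE, total counts or a fold change over 2 left these counts within 1.5 times. Whether the replicate numbers pair the cultures could not be decided with 3 libraries per genotype. Deviations from the genotype means correlated at 0.262, 0.148 and 0.0224 for replicates 1, 2 and 3, and 1 of the 3 pairs was the best match on both sides. With the replicate block, 0 genes were called over all genes (3331 at an unadjusted p under 0.05) and 0 of the 31 lower, with Cpa3 at an adjusted p of 0.0832.

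The sign of the log2 fold change turned only in genes without a call. Mpo went from -0.07 to 0.15 with total counts and ranged from -2.56 to 0.46 with single libraries left out, Prtn3 was -0.19 with voom, and S100a9 ranged from -0.44 to 0.17. Cd177 was 0.21 with voom and 0.26 with the block and ranged from -1.14 to 0.61. Ly6g was 0.30 with voom, 0.017 with total counts and 0.35 with the block and ranged from -0.48 to 1.003. Prg3 was -1.70 with voom, -0.018 with RLE, -0.17 with no filter and -0.72 with the block and ranged from -0.35 to 0.61. Ear2 was -0.035 with no filter and ranged from -0.46 to 0.66, and without WT replicate 3 and Nfkb2-/- replicate 1 it was -0.39. Cyp11a1 was -0.41 in that last setting and ranged up to 1.096 with single libraries left out. The cause of these moves was not tested. Of the 38 genes, 17 averaged under 1 CPM, where few reads limit any comparison.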
